A study of Oryctolagus cuniculus with 24 samples.

Results

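A set of 116 genes, of 17318 in the tables, was chosen for a higher level in intestinal epithelial cells (IEC) of rabbits given whipworm ova and DSS. In lamina propria mononuclear cells (LPMC) of the same rabbits they had little or no rise, and some were lower. Caecal IEC and LPMC of 12 New Zealand White rabbits were profiled by RNA sequencing, with 3 rabbits in each of 4 groups and both cell types taken from every rabbit at day 35. TSO rabbits were given ova of Trichuris suis, a whipworm of pigs, into the stomach in 3 doses of 2500, and Veh rabbits received the vehicle. DSS rabbits drank 0.1% dextran sodium sulfate in fennel tea for 5 days from day 26, and Water rabbits drank the tea alone. The groups are called Veh Water, Veh DSS, TSO Water and TSO DSS. All were young animals, housed singly.

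A gene entered the set by the values of 12 libraries, those of Veh Water and TSO DSS in both cell types. The LPMC libraries of Veh DSS and TSO Water counted only for detection in LPMC. Levels are given as CPM, the reads of a gene per 1000000 gene reads of the library, and a change is the difference of the group means of log2(CPM + 1). The rule asked for an IEC change of TSO DSS over Veh Water above 1.5, for no overlap between these groups in IEC, for an LPMC change between -1 and 0.5, for at least 1 LPMC library above 0, and for a gene outside the mitochondrial genome. Without the LPMC limits 323 genes would have met it, of which 195 had an LPMC change of 0.5 or more and 12 one of -1 or less. Of the genes that the rule leaves out by name, neither met its other parts. The differences of TSO DSS from Veh Water are therefore a description of how the genes were picked, and nothing is read from them.

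The caecal epithelium is a single layer of absorptive and mucus-secreting cells renewed from stem cells in the crypts. It separates the gut content from the lamina propria, the connective tissue in which most T cells, B cells, macrophages and eosinophils of the mucosa reside, and some lymphocytes lie within the epithelium itself. DSS damages this layer and lets bacteria reach the tissue below, and it serves as a chemical model of colitis, while whipworms live in contact with the caecal epithelium. IEC were shaken off the tissue with EDTA, and LPMC were released by collagenase from what remained and collected on a density gradient. Neither was sorted by surface markers. The data are bulk measurements, so that more cells of a type and more RNA per cell cannot be told apart. The tables name genes by Ensembl identifier, and 0 of the 17318 identifiers matched the symbols at hand, so the 116 genes are given by identifier, no function is stated for them, and the cell types were not checked against marker genes.

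IEC libraries held 13148511 to 27479798 gene reads and LPMC libraries 3685522 to 15770401, the fewest in LPMC of TSO DSS rabbit 3. The mitochondrial share of the reads was 12.4% to 46.5% in IEC and 9.06% to 25% in LPMC. It was 29.9%, 12.4% and 14.2% in IEC of Veh DSS rabbits 1 to 3, 20.9%, 21.2% and 46.5% in TSO DSS and 17.4%, 41.7% and 32% in TSO Water. A high mitochondrial share lowers the CPM of all other genes of a library. Veh Water rabbit 1 and TSO Water rabbit 2 were housed in another room than the other rabbits. The 3 rabbits of a group were separate animals.

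Of the 116 genes, 104 had reads in all 24 libraries. Their mean level over the 12 IEC libraries ran from 0.867 to 1680 CPM with a median of 17.2 CPM, and over the 12 LPMC libraries from 0.152 to 2872 CPM with a median of 27.6 CPM, not corrected for transcript length. Chromosome 1 held 16 of them (13.8%, against 9.25% of all genes placed on a chromosome), chromosome 2 held 14 (12.1% against 6.81%), chromosome 12 held 12 (10.3% against 6.78%) and chromosome 13 held 10 (8.62% against 9.74%), and 61 lay on the minus strand. The deposited tables give the chromosome and strand of each gene but no start and end.

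In IEC of TSO DSS the change over Veh Water had a median of 2.08 and ran from 1.51 to 9.14. In LPMC of the same rabbits it had a median of 0.12 and ran from -0.99 to 0.5. No TSO DSS library overlapped with Veh Water for any of the 116 genes, by the rule, where 6.54% of all genes showed this. The summed level of the 116 genes in IEC was 1564, 2266 and 1408 CPM in the Veh Water rabbits and 12103, 11429 and 7814 CPM in the TSO DSS rabbits. At the threshold of the rule, ENSOCUG00000023146 with an IEC change of 1.51 and ENSOCUG00000013369 with 1.54 were the last genes inside, and ENSOCUG00000013725 and ENSOCUG00000016103, both at 1.5 after rounding, were the first outside. A gene is said to be called where limma gave a Benjamini-Hochberg adjusted p under 0.05 and a log2 fold change beyond 1. In this contrast the choice of the genes sets the number called, which was 97 of the 116 where 3.47% of all genes were called higher, and it is no test of them.

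The gene with the most reads was ENSOCUG00000002480 on chromosome 12. In IEC it stood at 306, 646 and 344 CPM in Veh Water and at 3704, 3064 and 1974 CPM in TSO DSS. In LPMC it stood at 3408, 1991 and 1445 CPM in Veh Water and at 3915, 1836 and 3351 CPM in TSO DSS. These libraries are those of the rule, and the levels are a description. ENSOCUG00000016580 on chromosome 2 had 207, 188 and 192 CPM in IEC of Veh Water, 649, 673 and 533 CPM in IEC of TSO DSS and 687, 640 and 1104 CPM in LPMC of TSO DSS.

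Apart from ENSOCUG00000001324, described further on, the largest IEC changes were those of ENSOCUG00000015143 on chromosome 13 (4.74), ENSOCUG00000014197 on chromosome 2 (4.56), ENSOCUG00000015138 on chromosome 13 (4.44) and ENSOCUG00000003247 on chromosome 16 (4.35). ENSOCUG00000015143 had 2.26, 4.85 and 2.36 CPM in IEC of Veh Water and 121, 126 and 78.8 CPM in TSO DSS. ENSOCUG00000014197 had 0.146, 0.746 and 0.456 CPM, from 4, 16 and 6 reads, and then 34.3, 38.7 and 26.3 CPM. In every LPMC library both were above their IEC levels of Veh Water, with ENSOCUG00000015143 at 51.5 to 549 CPM in Veh Water and 169 to 318 CPM in TSO DSS. Next in order came ENSOCUG00000015057 (3.95), ENSOCUG00000021056 (3.9), ENSOCUG00000004172 (3.88), ENSOCUG00000013688 (3.42) and ENSOCUG00000014567 (3.36).

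**Figure D1:**
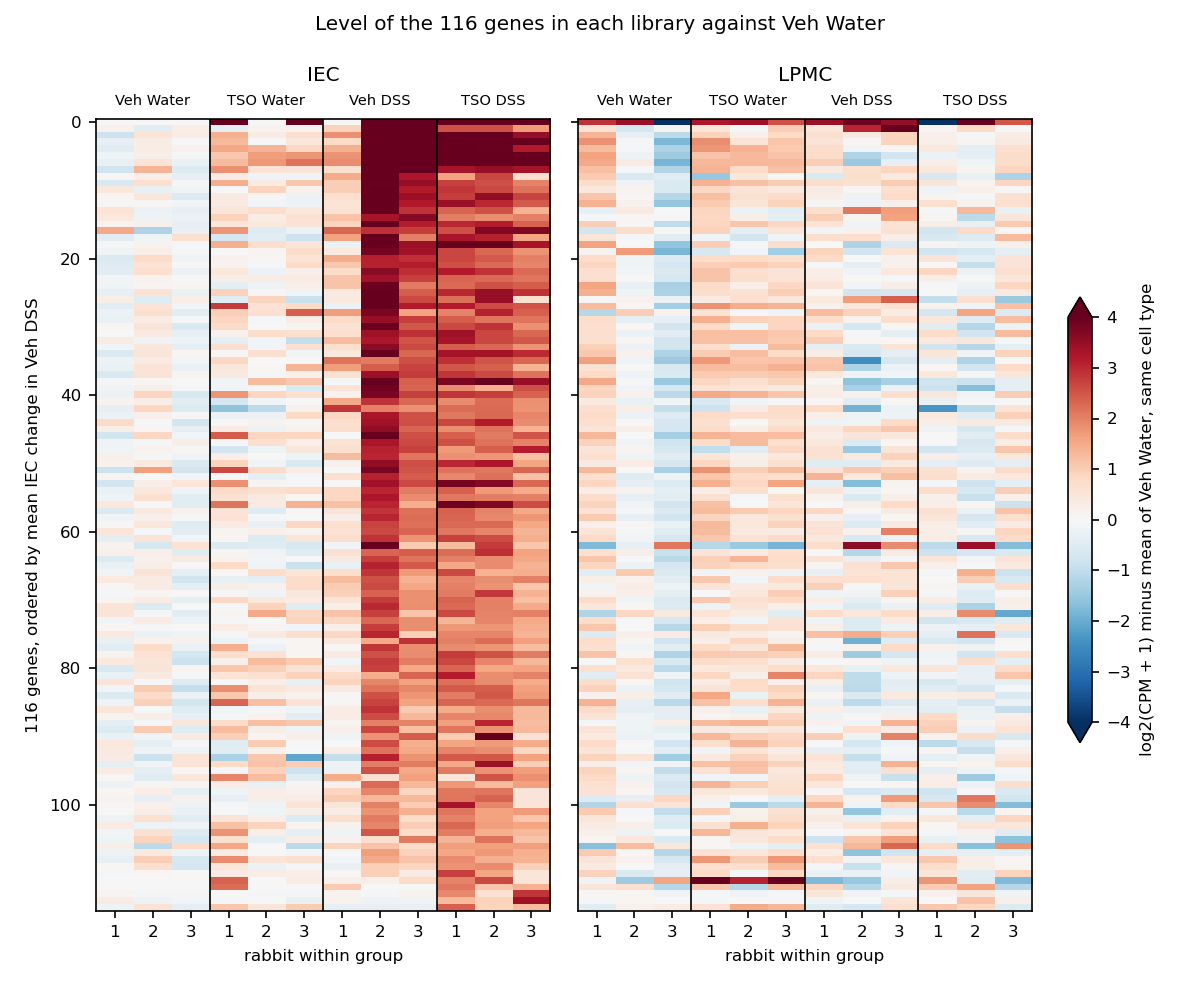
Each row is one of the 116 genes and each column a library, with IEC on the left and LPMC on the right, grouped by treatment with 3 rabbits each. Colour gives log2(CPM + 1) minus the mean of the Veh Water libraries of that cell type, cut at 4 in either direction, and rows are ordered by the mean IEC change in Veh DSS. The IEC columns of TSO DSS are red by the choice of the genes, and those of Veh DSS rabbits 2 and 3 are red as well, while Veh DSS rabbit 1 and the TSO Water rabbits are paler.

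The set was chosen on ova with DSS. In IEC of Veh DSS rabbits, which the rule did not use, most of the genes had a mean above that of Veh Water, whose libraries it did use. Their IEC change of Veh DSS over Veh Water had a median of 1.86 (interquartile range 1.41 to 2.34), against -0.04 over all genes detected. It was above 0 for 114 genes and above 1 for 105, or 90.5%, against 4.18% of all genes, and above 1.5 for 82, or 70.7%, against 2.45%. This comparison and that of TSO DSS share the Veh Water libraries, and low values there move both, so that every count against Veh Water, here and further on, is a description and supports nothing by itself. The lowest changes were -0.32 for ENSOCUG00000023146 and -0.07 for ENSOCUG00000017459. A test took only genes marked as present in the deposited tables of its groups, and a gene could pass through the group in which it is high. In limma 1 of 113 genes tested was called higher, against 0.0268% of all genes. Without adjustment 86 had p under 0.05 and a fold above the threshold (76.1%, against 5.22% of all genes). At an adjusted p under 0.05 edgeR's quasi-likelihood test called 0, and 0 of all genes higher. DESeq2 called 85, where it called 3.57% of all genes higher.

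The called gene was ENSOCUG00000000831 on chromosome 9, named here after its values were seen. In IEC it had 3.09, 4.85 and 3.35 CPM in Veh Water, 20.4, 19 and 26.8 CPM in Veh DSS and 34.4, 26 and 21.9 CPM in TSO DSS. Unlike most of the set it was not lowest in Veh DSS rabbit 1, which lay between rabbits 2 and 3. The call rests on the Veh Water libraries that the rule used, and it was lost when any 1 of 5 libraries was left out.

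The Veh DSS rabbits differed among themselves. The summed IEC level of the 116 genes was 2953 CPM in rabbit 1, 18689 CPM in rabbit 2 and 10690 CPM in rabbit 3, and the median change was 0.57, 2.97 and 2.18. Rabbit 1 was the lowest of the 3 for 105 genes (40.6% of all genes) and rabbit 2 the highest for 99 (34.1% of all genes). Rabbits 2 and 3 were both above the highest Veh Water library for 110 genes, where 15.2% of all genes showed this. All 3 rabbits were above it for 71 genes (61.2%, against 5.07% of all genes), and for the other 39 rabbit 1 was not. In rabbit 2, 78 genes were above the highest TSO DSS library, in rabbit 3 it was 30 and in rabbit 1 it was 1, where 30.1%, 33.7% and 24.6% of all genes were and the genes were picked for high levels in TSO DSS. Rabbit 1 had the largest mitochondrial share of the group, and with mitochondrial genes left out of the sum the medians were 0.75, 2.88 and 2.11.

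ENSOCUG00000015057 on chromosome 1 had one of the 3 largest IEC changes in Veh DSS, at 3.97. It had 5.02, 14.4 and 11.9 CPM in IEC of Veh Water, 37, 565 and 212 CPM in Veh DSS and 176, 207 and 118 CPM in TSO DSS. Veh DSS rabbit 1 stood above all Veh Water rabbits and below all TSO DSS rabbits, and rabbits 2 and 3 stood above all of these. ENSOCUG00000021056 on chromosome 3 had 64.4, 978 and 428 CPM in Veh DSS, against 16.3 to 29.1 CPM in Veh Water and 217 to 578 CPM in TSO DSS. ENSOCUG00000014567 on chromosome 10 had 11.1, 296 and 123 CPM in Veh DSS, against 74.8 to 84.8 CPM in TSO DSS. For ENSOCUG00000002480 the Veh DSS rabbits had 683, 4950 and 3134 CPM.

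Set side by side, the IEC mean of TSO DSS was above that of Veh DSS for 88 of the 116 genes, with a median difference of 0.29 in log2(CPM + 1). The means lay within 1 of each other for 101 genes, TSO DSS was higher by more than 1 for 13, and Veh DSS was higher by more than 1 for 2. One library decided this order: without Veh DSS rabbit 1 the median difference was -0.41 and TSO DSS was higher for 35 genes. Because TSO DSS chose the genes, no test of the difference was made. ENSOCUG00000016280 on chromosome 15 was the clearest case of a higher level in Veh DSS, with 2.35, 158 and 61.6 CPM there and 9.5, 9.32 and 4.78 CPM in TSO DSS, against 0.326 to 1.14 CPM in Veh Water. In LPMC too it was high in Veh DSS rabbits 2 and 3, at 96.1 and 229 CPM, against 15.1 CPM in rabbit 1 and 6.23 to 16.9 CPM in Veh Water.

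For 6 of the 116 genes the IEC change in Veh DSS was under 0.5, on a log2(CPM + 1) scale that compresses differences between low levels. Among these ENSOCUG00000000545 had a mean of 0.0841 CPM in IEC of Veh Water and of 0.513 CPM in Veh DSS. ENSOCUG00000017459 on chromosome 17 had 2.25, 1.52 and 13 CPM in IEC of TSO DSS and 0.075 to 0.655 CPM in the other 9 IEC libraries. ENSOCUG00000004499 on chromosome 19 had 2.89, 0.564 and 6.48 CPM in TSO DSS, from 45, 13 and 114 reads, and at most 4 reads in any other IEC library. ENSOCUG00000023146 on chromosome 4 had 11.4, 3.42 and 4.66 CPM in TSO DSS, 0.897, 0.872 and 0.909 CPM in Veh DSS and 4.04, 2.3 and 3.75 CPM in TSO Water. These 3 genes had few reads, and TSO DSS did not overlap with the other IEC groups for ENSOCUG00000017459 and ENSOCUG00000004499, whereas ENSOCUG00000023146 overlapped with TSO Water. The others were ENSOCUG00000005935, ENSOCUG00000000545 and ENSOCUG00000027931, the last of which was higher in TSO Water rabbit 1, at 3.68 CPM, than in the TSO DSS rabbits, at 3.34, 1.17 and 1.65 CPM.

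Under TSO alone the summed IEC level was 3062, 1926 and 2752 CPM. By rabbit the median change over Veh Water was 0.35, 0.14 and 0.2. With mitochondrial genes left out of the sum it was 0.37, 0.51 and 0.4. The change of the group over Veh Water had a median of 0.27, against -0.14 over all genes detected. It was above 0 for 96 genes (82.8%, against 21.2% of all genes) and above 1 for 13 (11.2%, against 0.818%). The rule picked genes that are low in these Veh Water libraries, so these values and the counts that follow are a description, and nothing is read from their distance to the shares of all genes. In limma 0 of 112 genes tested were called against Veh Water (background 0%). Without adjustment 23 had p under 0.05 and a higher level by the fold threshold (20.5%, against 1.2% of all genes). The quasi-likelihood test of edgeR called 0, and 0 of all genes higher. DESeq2 called 5, where it called 0.191% of all genes higher. Every TSO Water library was above every Veh Water library for 16 genes (13.8%, against 0.974% of all genes). ENSOCUG00000015138 was among these, with 18.6, 28.4 and 30.4 CPM in TSO Water and 7.24, 9.88 and 7.76 CPM in Veh Water, and ENSOCUG00000015143 with 8.52, 12.4 and 16.9 CPM. Their IEC changes were 1.51 and 1.72, against 4.44 and 4.74 in TSO DSS. The lowest changes were those of ENSOCUG00000005985 on chromosome 2 (-0.83), ENSOCUG00000028026 on chromosome 9 (-0.75) and ENSOCUG00000008303 on chromosome 1 (-0.64).

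The comparison of Veh DSS with TSO Water asked whether the genes differ in IEC between groups that the rule did not use. Here the 116 genes were mostly higher in Veh DSS, but none of them passed limma's test across all genes. Of the 114 genes tested 109 had a higher mean in Veh DSS, with a median log2 fold change of 1.74 (interquartile range 1.04 to 2.18), against -0.02 over all 11240 genes tested. In limma 0 were called higher, against 0.0178% of all genes, and 0 lower, against 0.0267%. Without adjustment 55 had p under 0.05 with the fold (48.2%, against 3.74% of all genes). With a replicate left out this count ran from 23, without Veh DSS rabbit 3, to 90, without rabbit 1. The shares of all genes in those fits are not given. The quasi-likelihood test of edgeR called 0, and 0 of all genes higher. DESeq2 called 45, where it called 2.01% of all genes higher. Without Veh DSS rabbit 1 limma called 25, against 0.988% of all genes, and the median was 2.41, and without rabbit 2 it called 0 and the median was 1.17.

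Every Veh DSS library was above every TSO Water library for 49 of the 116 genes (42.2%, against 6.76% of all genes). Rabbits 2 and 3 alone were above all TSO Water libraries for 98 genes, where 16.5% of all genes in IEC showed this, and rabbit 1 for 51, where 22.6% did. The next 2 genes were named for their low IEC change in TSO Water, which enters this comparison, so their folds are a description. ENSOCUG00000008303 had 4.82, 34.9 and 6.78 CPM in Veh DSS and 0.217, 0.428 and 0.075 CPM in TSO Water, from 3, 8 and 1 reads. The groups did not overlap, and the log2 fold change was 5.21 ± 0.91 (SE, n = 3 in each group). ENSOCUG00000005985 had 381, 212 and 189 CPM in Veh DSS and 16.5, 24.7 and 58.6 CPM in TSO Water, a log2 fold change of 2.96 ± 0.58 (SE). It was one of 4 genes for which Veh DSS rabbit 1 was the highest. ENSOCUG00000002480 had a log2 fold change of 2.15 ± 0.69 (SE, limma adjusted p = 0.76), ENSOCUG00000011090 on chromosome 13 of 2.53 ± 0.84 (limma adjusted p = 0.77) and ENSOCUG00000015057 of 3.07 ± 0.93 (limma adjusted p = 0.76). All had n = 3 in each group and Veh DSS rabbit 1 the lowest of its group. DESeq2 gave these 3 genes an adjusted p of 0.005, 0.0024 and 0.00053. ENSOCUG00000015057 was also named for its high IEC change in Veh DSS, so its fold and p-values are a description too. In the opposite direction ENSOCUG00000023146, named for the lowest IEC change in Veh DSS, had a log2 fold change of -1.95 ± 0.32 (SE), a description as well since that choice sets its direction, and was the only one of the 116 whose Veh DSS libraries all lay below those of TSO Water (0.862%, against 1.57% of all genes).

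**Figure D2:**
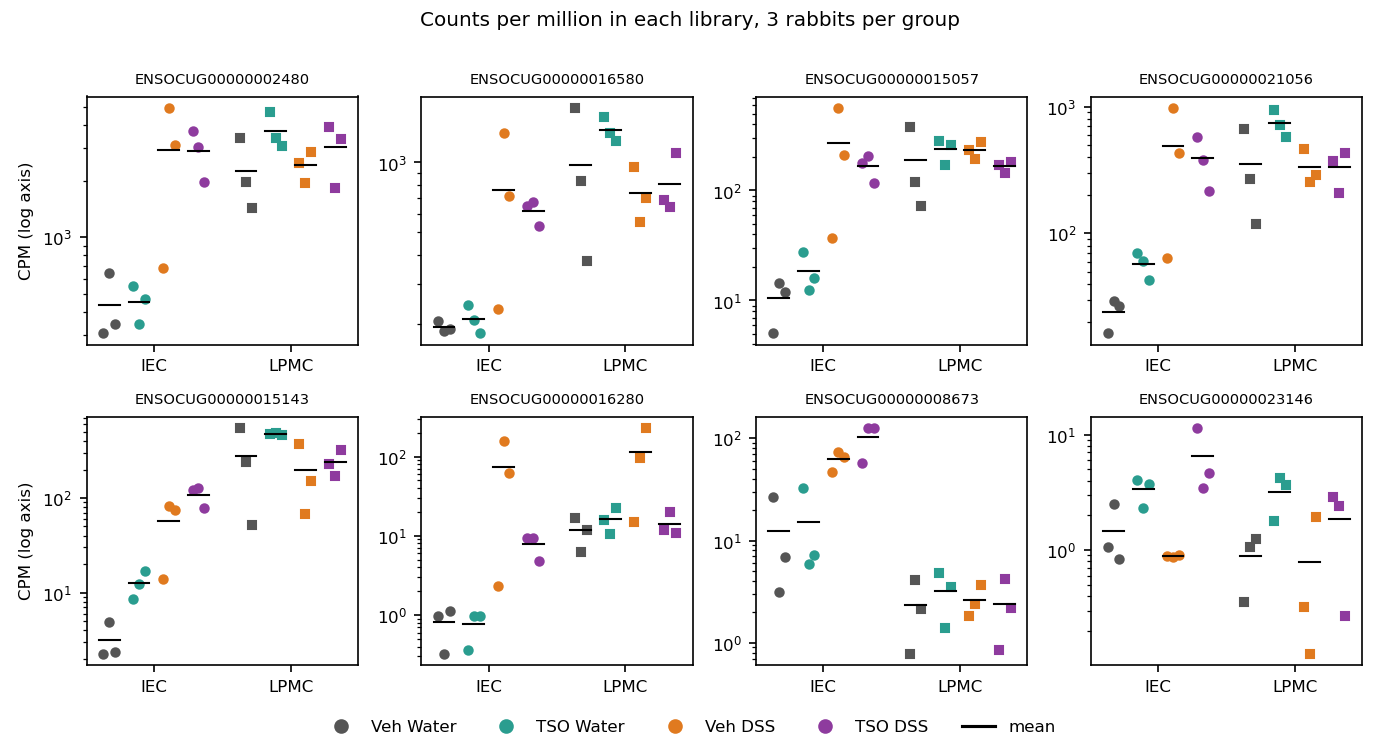
CPM of 8 genes on log axes, with IEC as circles and LPMC as squares, 3 rabbits per group from left to right and a black line at each group mean. In IEC of Veh DSS rabbit 1 (first orange circle) ENSOCUG00000002480, ENSOCUG00000016580, ENSOCUG00000015057, ENSOCUG00000021056, ENSOCUG00000015143 and ENSOCUG00000016280 lay below rabbits 2 and 3. The LPMC levels of the first 5 lay above the IEC levels of Veh Water and TSO Water, while ENSOCUG00000008673 was higher in IEC of every rabbit but Veh Water rabbit 2.

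In LPMC most of the genes had a lower mean in Veh DSS than in TSO Water, and none of them passed limma's test across all genes. Of 114 genes tested 89 had a lower mean and 25 a higher one. The median log2 fold change was -0.63 (interquartile range -1.03 to -0.21) against 0.01 over all genes tested. In limma 0 were called lower, against 0.0617% of all genes, and 29 had an unadjusted p under 0.05 with the fold (25.4%, against 4.18% of all genes). The quasi-likelihood test of edgeR called 0, and 8 of all genes lower. DESeq2 called 15, where it called 1.66% of all genes lower. Every Veh DSS library was below every TSO Water library for 45 genes (38.8%, against 7.16% of all genes). In the other direction limma called 0, against 0.0176% of all genes, 7 had an unadjusted p under 0.05 with the fold (6.14%, against 2.48%), and 5 did not overlap (4.31%, against 8.13%). The genes that are higher in LPMC than in IEC but not in the set, 1685 in number, had a median of -0.53 in this comparison. They were called from these same libraries, and the medians were not compared.

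The LPMC libraries of Veh Water also served to choose the genes, and the values against them are a description. Against Veh Water, the LPMC change of TSO Water had a median of 0.64 and that of all genes 0, and every TSO Water library was above every Veh Water library for 23 genes (19.8%, against 6.97% of all genes). Every Veh DSS library was above for 6 genes (5.17%, against 10.8%). The Veh Water rabbits were spread widely in LPMC, with summed levels of 19882, 10861 and 5658 CPM, where the TSO Water rabbits had 20864, 17627 and 17534 CPM and the Veh DSS rabbits 13800, 8936 and 12674 CPM. ENSOCUG00000005737 on chromosome 20 followed this order, with 1564, 743 and 304 CPM in Veh Water, 1473, 1431 and 1383 CPM in TSO Water, 875, 265 and 439 CPM in Veh DSS and 631, 415 and 1117 CPM in TSO DSS. Its log2 fold change of Veh DSS over TSO Water in LPMC was -1.62 ± 0.37 (SE, n = 3 in each group, limma adjusted p = 0.2), with no overlap between the groups. ENSOCUG00000016580 showed the same, at 959, 556 and 705 CPM in Veh DSS and 1568, 1334 and 1242 CPM in TSO Water, a log2 fold change of -0.94 ± 0.21 (SE, limma adjusted p = 0.2).

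On the mean of the Veh DSS and TSO Water rabbits, most of the 116 genes were lower in IEC than in LPMC, but few were so in every rabbit. Over the Veh DSS and TSO Water rabbits, with 6 libraries of each cell type, 111 of 115 genes tested had a lower mean in IEC, with a median log2 fold change of -1.59 (interquartile range -2.26 to -1.02) against -0.04 over all genes. In limma 62 were called lower in IEC (53.9%, against 15% of all genes) and 1 was called higher (0.87%, against 4.18% of all genes). This fit took both cell types of a rabbit as separate samples. With the rabbit as a block 48 were called lower, of 1756 genes called lower in all. IEC was below LPMC in each of the 6 rabbits for 10 of the 116 genes (8.62%, against 14.3% of all genes). The count called lower was 26 without TSO Water rabbit 3 (11.2% of all genes called lower), and 27 and 28 without TSO Water rabbits 1 and 2 (11.8% for both). It was 44 without Veh DSS rabbit 1 (13.8% of all genes) and 88 without rabbit 2 (17.4%). With edgeR's quasi-likelihood test it was 37 (13.6%). The rabbits of 1 room are those left without TSO Water rabbit 2.

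ENSOCUG00000004172 on chromosome X had 1.61, 58.9 and 13.7 CPM in IEC of Veh DSS and 1.59, 5.67 and 4.87 CPM in TSO Water, against 125, 37.9 and 46.9 CPM and 215, 183 and 217 CPM in LPMC. The genes of this paragraph were named for the largest differences in these same libraries, so their folds and p-values are a description. For ENSOCUG00000004172 the log2 fold change of IEC over LPMC was -4.13 ± 0.86 (SE, n = 6 in each cell type from the same 6 rabbits, limma adjusted p = 0.0033). IEC was above LPMC in 1 rabbit, Veh DSS rabbit 2. ENSOCUG00000021710 on chromosome 19 had 1.2, 20.9 and 12.4 CPM in IEC of Veh DSS and 51.9, 20.1 and 76.3 CPM in LPMC, with a log2 fold change of -4.46 ± 0.82 (SE, limma adjusted p = 0.0016) over both groups. Of the 4 genes with a higher mean in IEC, the one called was ENSOCUG00000008673 on chromosome 13. It had 47.1, 73.4 and 65.6 CPM in IEC of Veh DSS and 32.4, 5.83 and 7.2 CPM in TSO Water, against 1.83, 2.41 and 3.67 CPM and 4.76, 1.4 and 3.48 CPM in LPMC. IEC was above LPMC in all 6 rabbits, with a log2 fold change of 3.25 ± 0.53 (SE, limma adjusted p = 0.00081). In IEC all 3 rabbits of Veh DSS were above those of TSO Water.

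**Figure D3:**
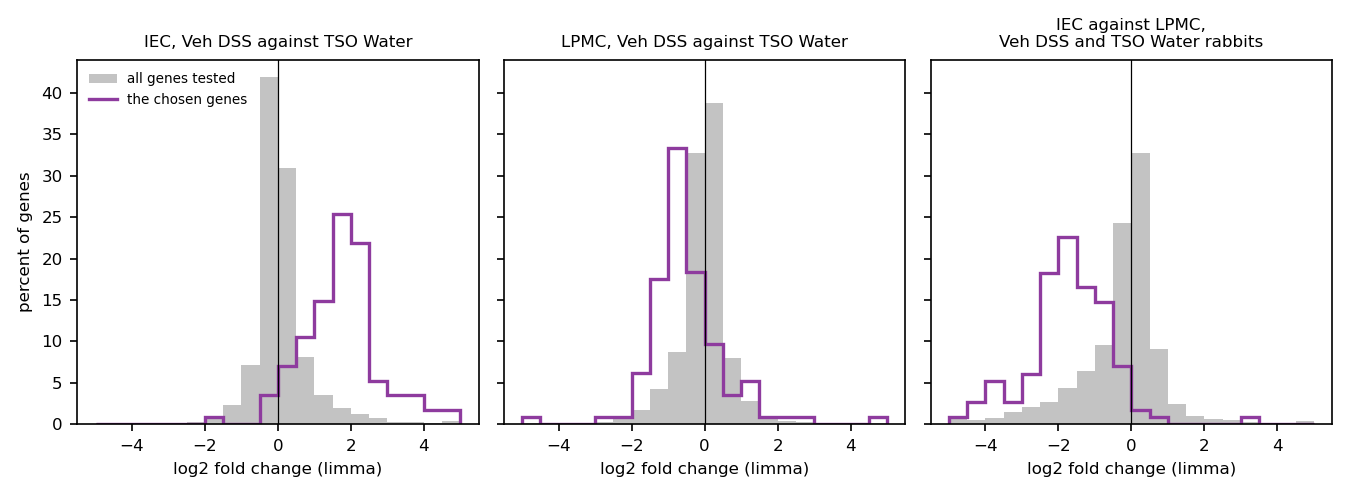
Percent of genes in steps of 0.5 of log2 fold change, for the 116 genes (purple line, those tested) and all genes tested (grey), in 3 comparisons among Veh DSS and TSO Water libraries, with values beyond 5 placed in the end steps. The 116 genes lay above 0 in IEC of Veh DSS against TSO Water (median 1.74), below 0 in LPMC (median -0.63) and below 0 in IEC against LPMC (median -1.59).

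Each rabbit gave both cell types, so IEC and LPMC can be set side by side within it, and for Veh Water and TSO DSS the rule sets the values in part. The median difference of IEC from LPMC over the 116 genes, in log2(CPM + 1), was -2.83, -1.86 and -1.81 in the Veh Water rabbits and -2.43, -2.55 and -2.51 in the TSO Water rabbits. In Veh DSS it was -1.84, 1.03 and -0.42, with rabbit 1 within the range of Veh Water, and in TSO DSS 0.2, 0.33 and -0.65. IEC was below LPMC for 108, 110 and 108 genes in the TSO Water rabbits, where 42.1%, 61.6% and 49.3% of all genes were. In the Veh DSS rabbits it was below for 112, 14 and 79 genes, where 49.6%, 38.3% and 46% of all genes were, the share being lowest in rabbit 2 for all genes too. In the TSO DSS rabbits it was below for 46, 37 and 85 genes, where 35.7%, 43.1% and 52.7% of all genes were. It was below in all 3 rabbits for 102 genes in TSO Water (87.9%, against 27.5% of all genes) and for 12 in Veh DSS (10.3%, against 21.1%). For the 1685 other genes that are higher in LPMC the median difference was -1.48, -1.74 and -1.88 in TSO Water and -1.3, -0.57 and -1.14 in Veh DSS.

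**Figure D4:**
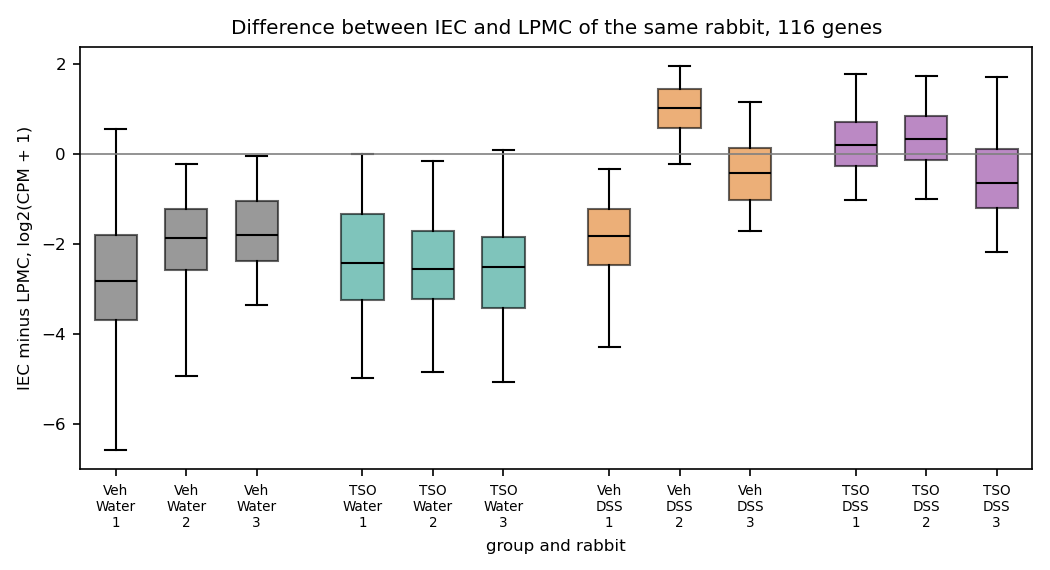
Difference of IEC and LPMC of the same rabbit in log2(CPM + 1), over the 116 genes, for the 12 rabbits. Boxes give the quartiles with the median as a line, and whiskers reach from the 5th to the 95th percentile of the genes. The medians lie between -2.83 and -1.81 in Veh Water, between -2.55 and -2.43 in TSO Water, and at -1.84, 1.03 and -0.42 in Veh DSS.

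The difference between Veh DSS and TSO Water was compared between IEC and LPMC in a fit of all 12 libraries, a test added after the data were seen. The rabbit was not a term of this fit, and with the rabbit as a block the count called was also 0. The fold change was greater in IEC for 111 of 115 genes, by a median of 2.27 on the log2 scale, against -0.02 over all genes. In limma 0 genes were called (background 0%), and 70 had an unadjusted p under 0.05 with the fold (60.9%, against 5.36% of all genes). The quasi-likelihood test of edgeR called 0, and 0 of all genes higher. DESeq2 called 55, where it called 1.71% of all genes. Without Veh DSS rabbit 1 limma called 49, against 1.36% of all genes, and the median was 3.07. Without rabbit 2 it called 0, where 2 of all genes were called higher, and the median was 1.6. For ENSOCUG00000005737 the estimate was 2.64 ± 0.71 (SE, limma adjusted p = 0.35) and for ENSOCUG00000015138 3.57 ± 0.97 (SE, limma adjusted p = 0.36), with 3 rabbits in each group for both.

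The IEC levels of the 1685 genes outside the set that limma called lower in IEC than in LPMC are given beside those of the set. That call used the Veh DSS and TSO Water libraries themselves, and the 116 genes were picked on Veh Water libraries, so that the values are a description and no test of a difference was made. The percent of the 1685 genes above the highest Veh Water library was 22.8, 41.8 and 39.1 in Veh DSS rabbits 1 to 3. It was 18, 16.5 and 11.3 in the TSO Water rabbits and 41.8, 59.1 and 20.4 in the TSO DSS rabbits. For all genes it was 12.9, 27.3 and 28 in Veh DSS, 27.8, 8.13 and 10.4 in TSO Water and 23.4, 27.6 and 12.6 in TSO DSS. The median IEC change of the 1685 genes over Veh Water was 0.02, 0.05 and 0.07 in Veh DSS rabbits 1 to 3, where that of the 116 genes was 0.57, 2.97 and 2.18. Against TSO Water, 1442 of the 1685 genes were tested in IEC and had a median log2 fold change of 0.32, with 67.7% above 0, where the 487 genes called higher in IEC had a median of -0.32, with 22.4% above 0. The share of LPMC-higher genes above Veh Water was, like the level of the 116 genes, lower in Veh DSS rabbit 1 than in rabbits 2 and 3, and its part in the result was not tested. Within the set, the 62 genes called higher in LPMC had a median of 1.8 in IEC of Veh DSS against TSO Water and the 52 others tested had 1.71.

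A few genes were read as present or absent. ENSOCUG00000001324 on chromosome 13 had the largest IEC change of the set, since it had 0 reads in the 3 Veh Water IEC libraries and 573, 492 and 638 CPM in TSO DSS, at least 3570-fold higher than 3 reads per library. It also had 0 reads in Veh DSS rabbit 1 and TSO Water rabbit 2 in IEC, and in LPMC of Veh Water rabbit 3 and TSO DSS rabbit 1, and 1653 to 18703 reads in all other libraries. In 5 rabbits it was at 0 in one cell type and at 573 CPM or more in the other. The tables hold 78 genes with 0 reads in a library and more than 1000 in another, and 2 of the 116 genes are among them. No weight is placed on the value of this gene, whose log2 fold change of Veh DSS over TSO Water in IEC was -0.02 ± 4.98 (SE, n = 3 in each group).

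The other of the 2 was ENSOCUG00000005935 on chromosome 19, chosen after its values were seen. In LPMC it had 126, 27.7 and 93.9 CPM in TSO Water, against 2.07, 0.267 and 9.23 CPM in Veh Water, 0, 0.19 and 3.05 CPM in Veh DSS and 10.7, 1.45 and 0 CPM in TSO DSS. The TSO Water rabbits stood above all others, with a log2 fold change of Veh DSS over TSO Water of -7.42 ± 1.3 (SE, n = 3 in each group, limma adjusted p = 0.15). In IEC it had 0 reads in all Veh Water libraries, 46, 121 and 7 reads in TSO DSS and 57, 0 and 3 reads in TSO Water, and the level in TSO DSS was at least 18-fold that of 3 reads per library. ENSOCUG00000027931 on chromosome X had 0 reads in IEC of Veh Water and 52, 27 and 29 in TSO DSS, at least 12.9-fold that floor. With the 3 genes without a read in Veh Water at their bound, the median IEC change of the set in TSO DSS stayed at 2.08.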

How the data were processed

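Reads of unstranded poly(A) libraries (single-end of 100 bp per the labels, while the methods of the study speak of paired inserts) gave 6 deposited tables, each with a treated group of a cell type beside Veh Water. Their values are a signal scaled by the authors: the reads of a gene multiplied by a factor that differs between libraries and tables. The submitters' processing notes name the build OryCun2.0 and FastQC. The aligner and the counting program are not given in the sources used here. Without strand, reads of overlapping genes cannot be told apart. Columns with the log2 ratio, p-value and FDR of the authors' own comparisons were not used. Rooms were taken from a supplement of the study.

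The members and the lists were chosen with earlier results of these data known. The tables were scaled, so the planned count test was replaced as planned. CPM was each deposited value over the sum of its column times 1000000. The steps between low values gave back whole reads, and 100% of values under 1000 lay within 0.1 of a whole number. Veh Water reads under 400 were the same in all tables. Main tests used limma 3.58.1 (trend) in R 4.3.3 on log2(value + 1), within a table against Veh Water, and on recovered reads scaled together by TMM otherwise, over the genes that the authors marked as present in a table of the groups compared, with Benjamini-Hochberg adjustment over all of them. Genes were called at an adjusted p under 0.05 and a log2 fold change above 1. Only the libraries compared entered a fit. Alternatives were edgeR 4.0.16 (quasi-likelihood) and DESeq2 1.42.0 on recovered reads, a pseudocount of 0.1, no filter, library size scaling, 1 room, each replicate left out and a replicate block. Scripts were tested on simulated data.

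Replicate numbers of different groups name different rabbits and did not pair the samples (correlations of deviations from -0.499 to 0.309). IEC and LPMC came from the same rabbit (0.374 to 0.443 in Veh DSS, -0.17 to 0.262 in TSO Water). Genes named were the 10 largest by IEC change in TSO DSS, the 5 and 3 with the most CPM in IEC and LPMC, the 3 highest and lowest in IEC of Veh DSS and of TSO Water, the 2 on each side of the rule's threshold, and the 3 largest differences between cell types in each direction. Members called in IEC of Veh DSS against TSO Water would have been named too, and there were 0. Marker and pathway lists needed symbols and were not used, and no sequence is shown.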

Additional observations from a re-analysis of the deposited data

How the results depend on the processing

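The counts below are of the chosen genes called by limma unless another tool is named. In IEC of Veh DSS against TSO Water, where limma called 0, DESeq2 called 45, the unadjusted p-value 55, and leaving out a replicate gave 0 to 25. In LPMC these were 15, 29 and 0 to 2 against 0, the 2 without Veh DSS rabbit 1, where 8 of all genes were called lower. For IEC against LPMC the count of 62 became 37 with edgeR, 28 in 1 room and 26 to 88 with a replicate left out. In IEC of TSO DSS against Veh Water, the contrast of the rule, the count is set by the rule. There 97 became 42 to 97 with a replicate left out, the lowest without TSO DSS rabbit 1. In that fit 124 of all genes were called higher, against 389 in the main fit. In IEC of Veh DSS against Veh Water the 1 call became 0 with edgeR, 0 in 1 room, 85 with DESeq2, 86 unadjusted and 0 to 58 with a replicate left out, the highest without Veh DSS rabbit 1, where 246 of all genes were called higher. In IEC of TSO Water against Veh Water 0 became 5 with DESeq2, 23 unadjusted, 1 in 1 room and 0 to 1 with a replicate left out. Of all genes 1 was called higher in 1 room, and 1 without TSO Water rabbit 2. In the added comparison of IEC with LPMC 0 became 55 with DESeq2, 70 unadjusted and 0 to 49 with a replicate left out. The cause was not tested.

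With the replicate block the count was 63 (of 197 genes called higher in all) for TSO DSS against Veh Water and 0 for Veh DSS against Veh Water in IEC, where numbers name different rabbits. With the rabbit as replicate block it was 48 (of 1756 called lower in all) for IEC against LPMC, and in the other comparisons it stayed at 0.

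The rule chose 175 genes with mitochondrial genes out of the sum (114 of the 116 among them), 190 with a pseudocount of 0.1 (107 among them), 168 with TMM scaling (114 among them) and 129 without LPMC of TSO DSS rabbit 3 (99 among them). Scaling by library size moved the all-gene median in IEC from -0.02 to -0.26 in TSO DSS against Veh Water, and the median of the chosen genes there from 2.79 to 2.55. For ENSOCUG00000001324 the log2 fold change of Veh DSS over TSO Water in IEC turned from -0.02 to 0.03 with library size scaling and ran from -4.46 to 4.3 with a replicate left out, above 0 without Veh DSS rabbit 1, TSO Water rabbit 1 or TSO Water rabbit 3. For ENSOCUG00000013688 it was 0.56 and ran from -0.1, without Veh DSS rabbit 2, to 0.92. Genes of a few reads are limited by depth.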
